A study of Mus musculus with 54 samples.

Results

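RNA sequencing followed 48 cell cycle and DNA replication genes in cultured mouse macrophages (BMDMs), grown out of marrow with M-CSF, the growth factor that makes macrophage precursors divide. The genes were taken by symbol for their known place in the cell cycle, with earlier results of these data known. They are 48 of the 52636 genes with a deposited count, and all 48 passed the filter on low counts that left 14970 genes for testing. The set holds 8 cyclins and kinases of the G1 phase, 3 inhibitors of cyclin-dependent kinases (CDKs), 2 E2F factors, 10 genes of origin licensing and the replicative helicase, 4 of nucleotide synthesis, 7 mitotic cyclins and Cdk1 activators, 6 mitotic kinases and checkpoint genes, and 8 genes of the spindle, the kinetochore and the chromosomes.

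The genotypes are N4bp1 KO, which lacks an RNA-binding protein that restrains NF-κB signalling, and wild type (WT). Cells of each genotype were exposed for 2, 4, 6 or 8 h to Pam3 (a synthetic lipopeptide that activates TLR2 with TLR1) or to R837 (imiquimod, a small molecule that activates TLR7), or were left untreated. The 18 groups have 3 libraries each, 54 in all, and the labels tie replicates to 3 mice. All groups share the culture: marrow grew with 50 ng/ml M-CSF for 5 days and was replated in fresh medium of the same kind for 2 more days. The protocol names wild-type C57BL/6N mice for all samples, and the labels do not state the strain of the KO mice. The sources used here give neither the age of the mice nor how N4bp1 was deleted.

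As background, cells that leave G1 raise D-type cyclins, which with Cdk4 and Cdk6 phosphorylate the retinoblastoma protein and so free E2F factors to switch on replication genes. Cdc6 and Cdt1 then load the Mcm2 to Mcm7 helicase on origins, and later cyclin A and cyclin B with Cdk1, the Aurora and Polo-like kinases and the kinesins carry the cell through mitosis. M-CSF keeps cultured BMDMs dividing, and ligands of Toll-like receptors are known to slow that division. In bulk RNA a smaller share of cycling cells and less RNA of a gene per cell cannot be told apart.

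Promoters of these genes carry letters that known regulators read: E2F-type sites in replication genes, and the cell cycle homology region (CHR) with nearby CCAAT boxes in mitotic genes. RefSeq windows (build GRCm38.p6) from 250 bases before to 50 after the start were in the table used for 39 of the 48 genes. Windows were searched on both strands for 4 E2F-type words (TTCCCGC first, then TTGGCGC, then TTCGCGC, then TTGCCGC), for the CHR words TTTGAA or TTTAAA, plus the box CCAAT. E2F-type letters stood in 8 of 13 replication genes (61.5%; licensing, helicase and nucleotide synthesis) and in 3 of 16 mitotic genes (18.8%), beside 10.9% of the 27025 genes in the table. CHR letters stood in 14 of 16 mitotic genes (87.5%) and in 5 of 13 replication genes (38.5%), beside 30.6% of all genes. CCAAT stood in 15 of 16 mitotic genes (93.8%) and 9 of 13 replication genes (69.2%), beside 41.1% of all genes. Of the 10 genes of the G1, inhibitor and E2F classes in the table, 3 held E2F-type letters, 3 held CHR letters and 5 held CCAAT.

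The 4 windows below belong to the replication and mitotic genes with the smallest p at 8 h of R837 in WT cells and with an entry in the table, and are printed 5′ to 3′ in the direction of the gene with matched letters in capitals. Mcm2 (chr6:88898731-88899030, minus strand) holds 1 CCAAT box, read here as ATTGG, and 1 CHR.
Mcm2: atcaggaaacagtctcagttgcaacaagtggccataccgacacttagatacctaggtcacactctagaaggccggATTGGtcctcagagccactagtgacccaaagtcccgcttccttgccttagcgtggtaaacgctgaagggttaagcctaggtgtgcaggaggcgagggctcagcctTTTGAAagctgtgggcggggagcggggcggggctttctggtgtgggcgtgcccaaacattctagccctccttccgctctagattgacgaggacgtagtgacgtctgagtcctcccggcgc
Mcm7 (chr5:138171834-138172133, minus strand; the first of its 2 windows) holds 3 E2F-type matches and 3 CCAAT boxes, and an E2F-type match overlaps a CCAAT box near its end.
Mcm7: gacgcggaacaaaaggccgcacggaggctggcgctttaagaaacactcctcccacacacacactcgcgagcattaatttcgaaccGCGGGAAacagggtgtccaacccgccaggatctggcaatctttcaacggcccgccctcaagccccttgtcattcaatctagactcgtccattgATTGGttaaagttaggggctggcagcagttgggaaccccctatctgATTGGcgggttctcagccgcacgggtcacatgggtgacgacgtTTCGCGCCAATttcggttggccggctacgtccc
Bub1b (chr2:118597961-118598260, plus strand) holds 1 CCAAT box and 1 CHR.
Bub1b: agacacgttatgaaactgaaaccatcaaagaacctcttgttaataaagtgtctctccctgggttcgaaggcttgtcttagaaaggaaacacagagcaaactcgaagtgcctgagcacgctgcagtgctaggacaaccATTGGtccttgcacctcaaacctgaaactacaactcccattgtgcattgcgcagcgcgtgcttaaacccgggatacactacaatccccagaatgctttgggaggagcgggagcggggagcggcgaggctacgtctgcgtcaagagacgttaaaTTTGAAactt
Cdc25b (chr2:131186698-131186997, plus strand) holds 1 CCAAT box.
Cdc25b: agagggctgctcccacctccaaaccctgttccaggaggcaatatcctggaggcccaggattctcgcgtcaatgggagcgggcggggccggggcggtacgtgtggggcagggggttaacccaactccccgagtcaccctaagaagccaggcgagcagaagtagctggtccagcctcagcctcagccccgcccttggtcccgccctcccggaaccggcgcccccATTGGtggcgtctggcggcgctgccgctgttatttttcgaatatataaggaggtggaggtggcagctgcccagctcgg
A match is a description of these letters and is not evidence of a bound factor.

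The 54 libraries hold 20.03 to 45.9 M counts each (median 29.9 M). N4bp1 itself lay between 30.1 and 205 CPM (counts scaled to 1 M) in KO cells and between 63.6 and 610 CPM in WT cells, and it was lower in KO cells in all 9 conditions, so its RNA was reduced and not absent. Markers of core macrophages were all detected in every library. Summed plasma and B cell markers (7 genes) lay between 39.1 and 120 CPM in KO cells and between 4.22 and 31.7 CPM in WT cells. Summed granulocyte and progenitor markers (10 genes) had 22.1 to 94.4 CPM in KO and 29.8 to 128 CPM in WT cells, and summed stromal and endothelial markers (7 genes) 8.36 to 31.4 CPM in KO and 25.7 to 52.5 CPM in WT cells. Replicate 3 of KO cells at 8 h of Pam3 stood apart, with counts for 12263 genes against 16097 to 18039 in the other 53 libraries. Y-linked genes (4 summed) had at most 0.199 CPM in all 27 KO libraries, while each condition had 1 WT library with almost none, 1 with a middle and 1 with a high level (up to 204 CPM). The X-inactivation RNA Xist lay between 63.4 and 220 CPM in KO cells and between 16.9 and 140 CPM in WT cells. In every comparison of genotypes 2 of the 3 WT libraries thus differed from the KO libraries in Y-linked counts as well. The part of these library properties in the results was not tested except where a value without the library is given.

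In untreated WT cells the genes were expressed at very different levels. Per kilobase of exon, Cdkn1a (75.0 RPKM, reads per kilobase and 1 M reads), the CDK inhibitor p21, and Cdk4 (57.7 RPKM) were the highest, followed by Top2a, the topoisomerase that untangles chromosomes, at 20.7 RPKM. The G1 cyclin Ccnd2 (0.361 RPKM) and the licensing factor Cdc6 (0.363 RPKM) were the lowest. The untreated KO cells had 54.8 RPKM of Cdkn1a, 56.2 RPKM of Cdk4 and 0.245 RPKM of Ccnd2.

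Some of the 48 genes rose at 2 h of either ligand, and most of the 48 were lower by 8 h, in both genotypes. At 2 h of Pam3, 18 of the 48 genes rose and 3 fell in KO cells, and 13 rose and 4 fell in WT cells, at an adjusted p of 0.05 in edgeR's quasi-likelihood test. Of all tested genes 39.8% changed in KO cells and 41.0% in WT cells in these comparisons, so the number of changed members alone was near the background. At 2 h of R837, 11 rose and 10 fell in KO cells (background 43.4%), and 9 rose and 9 fell in WT cells (42.0%). With Pam3 the share that rose was 37.5% of members beside 21.3% of all genes in KO cells, and 27.1% beside 22.1% in WT cells. With R837 it was 22.9% beside 22.8% in KO cells and 18.8% beside 22.2% in WT cells, so it was not above the background in number. Ccnd1, Ccnd2, Cdk6, Cdkn1a, Mcm2, Mcm4, Mcm5, Mki67 and Tk1 rose in all 4 comparisons at 2 h, and Bub1b and E2f2 fell in all 4, beside 15.4% of all genes that rose and 12.5% that fell in all 4. Of these calls, Tk1 lost its pass in each comparison, Bub1b in both Pam3 comparisons and Mcm2 in WT cells with R837 when single libraries were left out, as given with each gene.

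By 8 h the direction was mostly down. After 8 h of Pam3, 40 of 48 genes fell and 3 rose in KO cells, where 61.5% of all genes changed and 31.9% fell. In WT cells 31 fell and 3 rose, where 52.2% of all genes changed and 25.9% fell. After 8 h of R837, 32 fell and 4 rose in KO cells, beside 61.0% of all genes changed and 31.4% lower. In WT cells 32 fell and 4 rose, beside 57.3% changed and 29.1% lower. The median log2 change of the 48 genes at 8 h was -1.07 with Pam3 and -0.84 with R837 in KO cells, and -0.72 and -0.68 in WT cells, while the median over all tested genes lay between -0.08 and -0.03. Without KO replicate 3 of 8 h Pam3, 37 members fell and 4 rose in that KO comparison. Markers of other cell types were lower at 8 h too. Summed granulocyte and progenitor markers averaged 26.9 ± 6.17 CPM with Pam3, 34.4 ± 5.22 CPM with R837 and 73.7 ± 17.97 CPM untreated in KO cells, and 39.97 ± 9.71, 52.1 ± 16.3 and 96.98 ± 3.32 CPM in WT cells (SD, n = 3). Summed T and NK cell markers (6 genes) averaged 11.0 ± 2.35, 18.7 ± 0.494 and 33.9 ± 5.04 CPM in KO cells and 11.7 ± 2.49, 20.7 ± 8.04 and 25.4 ± 4.62 CPM in WT cells in the same order. Whether these markers have a part in the members' fall was not tested.

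The turn came between 2 and 6 h. In KO cells with Pam3, 22 genes fell and 4 rose at 4 h (background 52.5%), and 37 fell and 3 rose at 6 h (57.0%). WT cells with Pam3 had 17 lower and 3 higher genes at 4 h (49.0%), and 32 lower and 3 higher at 6 h (53.5%). With R837, KO cells had 17 lower and 5 higher genes at 4 h (52.9%), then 32 lower and 3 higher at 6 h (59.0%). WT cells had 17 lower and 4 higher at 4 h (53.8%), then 27 lower and 3 higher at 6 h (59.2%). At 8 h 27 members fell in all 4 ligand and genotype combinations, Ccnd2, Ccnd3 and Cdkn1a rose in all 4, and Ccne1, Mki67 and Tyms passed in none. Of all genes 19.5% fell in all 4, 20.5% rose in all 4 and 22.5% passed in none. Members that rose at 2 h and were lower at 8 h numbered 14 in KO cells with Pam3 (29.2% of the 48) and 7 with R837 (14.6%). In WT cells they numbered 7 with Pam3 (14.6%) and 5 with R837 (10.4%). Of all tested genes 3.01%, 1.77%, 2.34% and 1.73% did so in that order. These responses share the untreated libraries of their genotype, so likeness between the ligands is not independent.

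**Figure D1:**
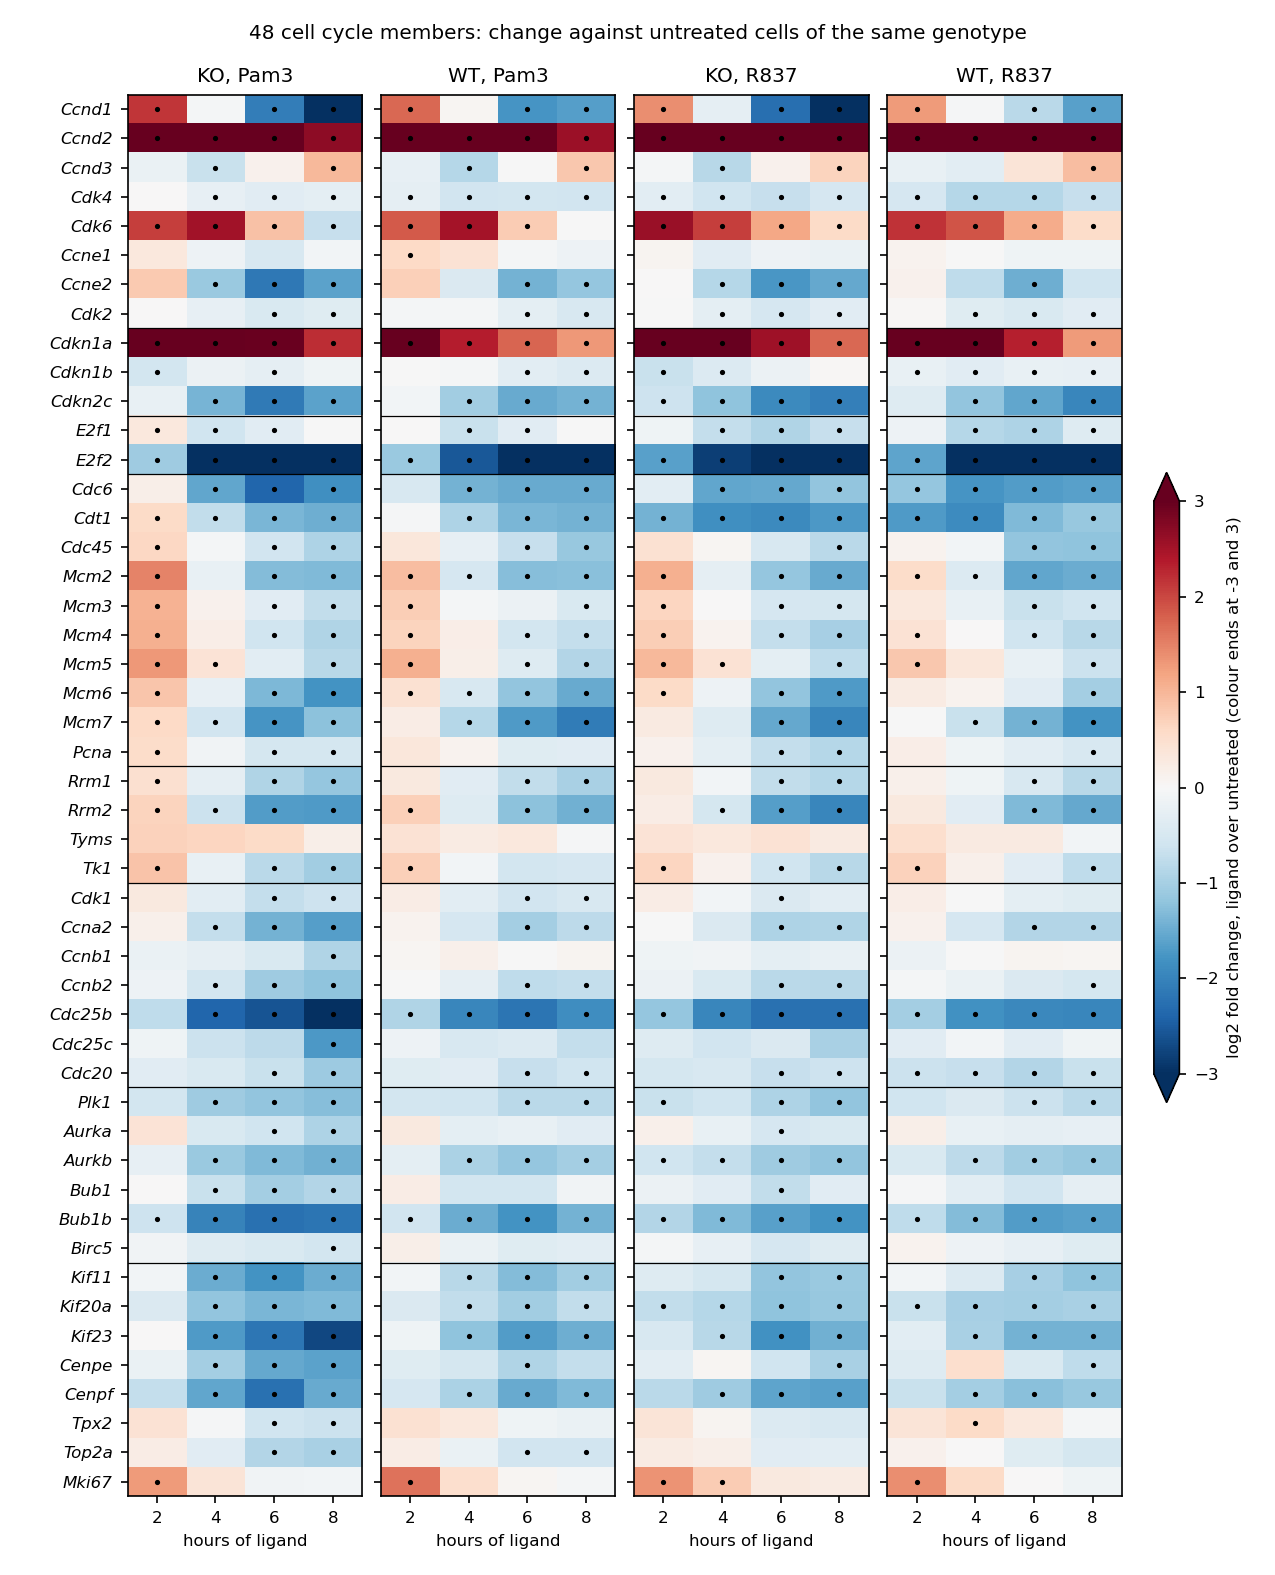
Log2 change of each of the 48 genes (rows, lines between role classes) against untreated cells of the same genotype at 2, 4, 6 and 8 h (columns) in 4 panels, KO Pam3, WT Pam3, KO R837 and WT R837. Colour ends at a log2 change of 3 either way and dots mark an adjusted p under 0.05; red is common in the replication rows at 2 h and blue covers most rows at 6 and 8 h, where 40 of 48 genes fell in KO cells and 31 in WT cells at 8 h of Pam3.

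**Figure D2:**
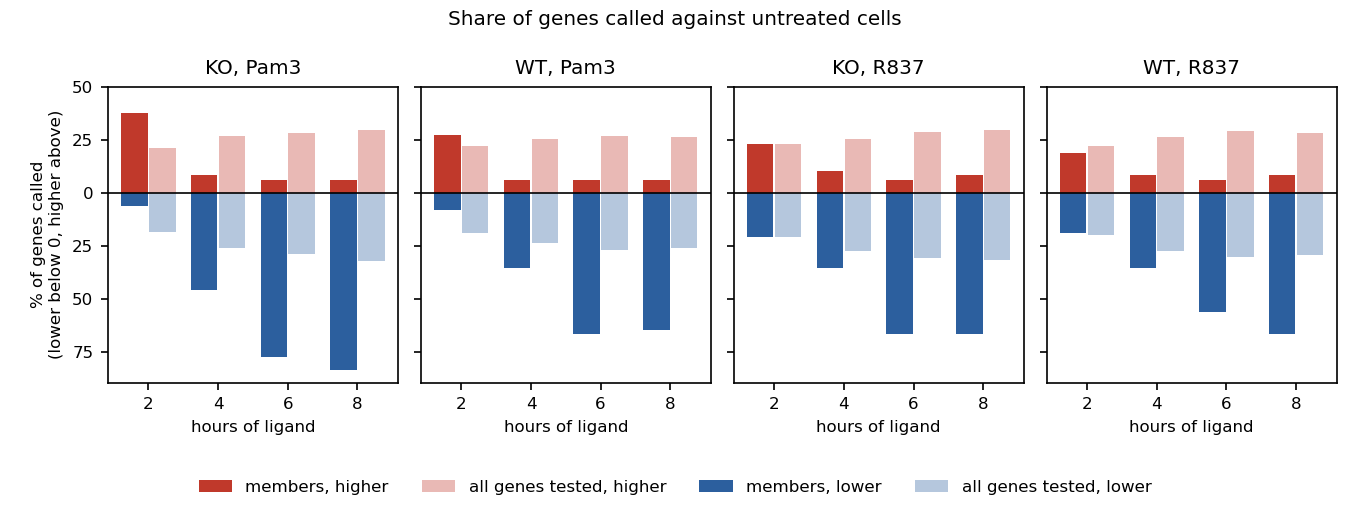
Percent of the 48 genes (dark bars) and of all 14970 tested genes (pale bars) that were higher (above 0) or lower (below 0) than in untreated cells at each time, per genotype and ligand. At 8 h of Pam3 in KO cells 40 of the 48 genes were lower, beside 31.9% of all genes.

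Among the G1 cyclins and kinases the 3 D-type cyclins followed different courses. This class of 8 had 3 higher and 0 lower members at 2 h of Pam3 in KO cells, 3 and 1 at 2 h of R837 in KO cells, 4 and 1 with Pam3 in WT cells and 3 and 1 with R837 in WT cells. At 8 h the counts were 2 higher and 5 lower, 3 and 4, 2 and 4, and 3 and 3 in the same order. Ccnd2 (cyclin D2) was near the lower end of detection before treatment and stayed raised for all 8 h, Ccnd1 (cyclin D1) peaked at 2 h and then dropped below its starting level, and Ccnd3 (cyclin D3) was above it at 8 h.

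Ccnd2 had 58.1, 38.1 and 74.9 CPM in the KO libraries at 2 h of R837, against 1.99, 1.12 and 1.83 CPM in untreated KO libraries. The WT libraries held 67.8, 66.6 and 69.7 CPM at 2 h of R837, against 2.02, 1.82 and 3.43 CPM untreated. No treated library overlapped an untreated one, and the log2 changes were 5.12 ± 0.42 in KO cells (SE; adjusted p = 2.27e-13) and 4.80 ± 0.40 in WT cells (adjusted p = 4.67e-13). In WT cells with R837 the mean went on to 98.2 CPM at 4 h and was 64.1 CPM at 6 h and 31.3 CPM at 8 h, whereas KO means were 44.0, 29.1 and 17.0 CPM at those times. With Pam3 the means at 2, 4, 6 and 8 h were 28.7, 33.6, 19.0 and 10.6 CPM in KO cells and 43.8, 36.9, 22.8 and 14.4 CPM in WT cells.

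Ccnd1 reached 133, 197 and 172 CPM in KO cells at 2 h of Pam3, against 42.4, 44.5 and 26.2 CPM in untreated KO cells. In WT cells it reached 153, 144 and 121 CPM at 2 h of Pam3, against 44.2, 47.9 and 33.4 CPM untreated. By 8 h of Pam3 the same gene had 3.24, 5.68 and 5.18 CPM in KO libraries and 8.58, 15.6 and 15.5 CPM in WT libraries. Each of these 8 h libraries was below every untreated library of its genotype, with log2 changes of -2.99 ± 0.31 in KO cells (adjusted p = 7.57e-11) and -1.66 ± 0.29 in WT cells (adjusted p = 5.16e-06). Ccnd3, given after its values were seen, had 23.0, 19.5 and 18.4 CPM in KO cells at 8 h of Pam3, against 10.7, 10.4 and 9.86 CPM in untreated KO cells, and its log2 changes at 8 h ran from 0.66 ± 0.20 to 0.98 ± 0.20 over the 4 combinations. At 4 h it was lower than untreated in 3 of the 4, all but WT cells with R837.

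The partner kinases also parted. Cdk6 was higher in every library at 2 h of R837, with 204.0, 197 and 214 CPM in KO cells against 35.6, 28.4 and 38.4 CPM untreated, and 210.3, 186 and 143 CPM in WT cells against 41.0, 40.7 and 39.2 CPM untreated. It stayed higher through 6 h in all 4 combinations, with log2 changes at 6 h from 0.76 ± 0.17 to 1.17 ± 0.17. Cdk4 fell modestly, and in WT cells at 8 h of R837 it had 70.5, 72.4 and 77.4 CPM, against 129, 112 and 115 CPM untreated (log2 -0.69 ± 0.09, adjusted p = 1.55e-08). In KO cells at 8 h of R837 it had 81.1, 86.7 and 75.4 CPM, against 105, 131 and 109 CPM untreated (log2 -0.51 ± 0.09, adjusted p = 6.29e-06). Ccne1 (cyclin E1) passed once in 16 comparisons, at 2 h of Pam3 in WT cells (log2 0.59 ± 0.22, adjusted p = 0.0233). Without WT untreated replicate 1 or WT Pam3 replicate 1 or 2 that adjusted p was 0.167, 0.188 or 0.109, and the call of Ccnd3 in KO cells at 8 h of R837 was lost without KO R837 replicate 1 (adjusted p = 0.082). An exon on the other strand covers 23.4% of the exon bases of Ccnd1, 19.7% of Cdk4 and 17.4% of Ccne2. The library kit does not mark strand, so reads from these bases could not be told apart by strand.

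**Figure D3:**
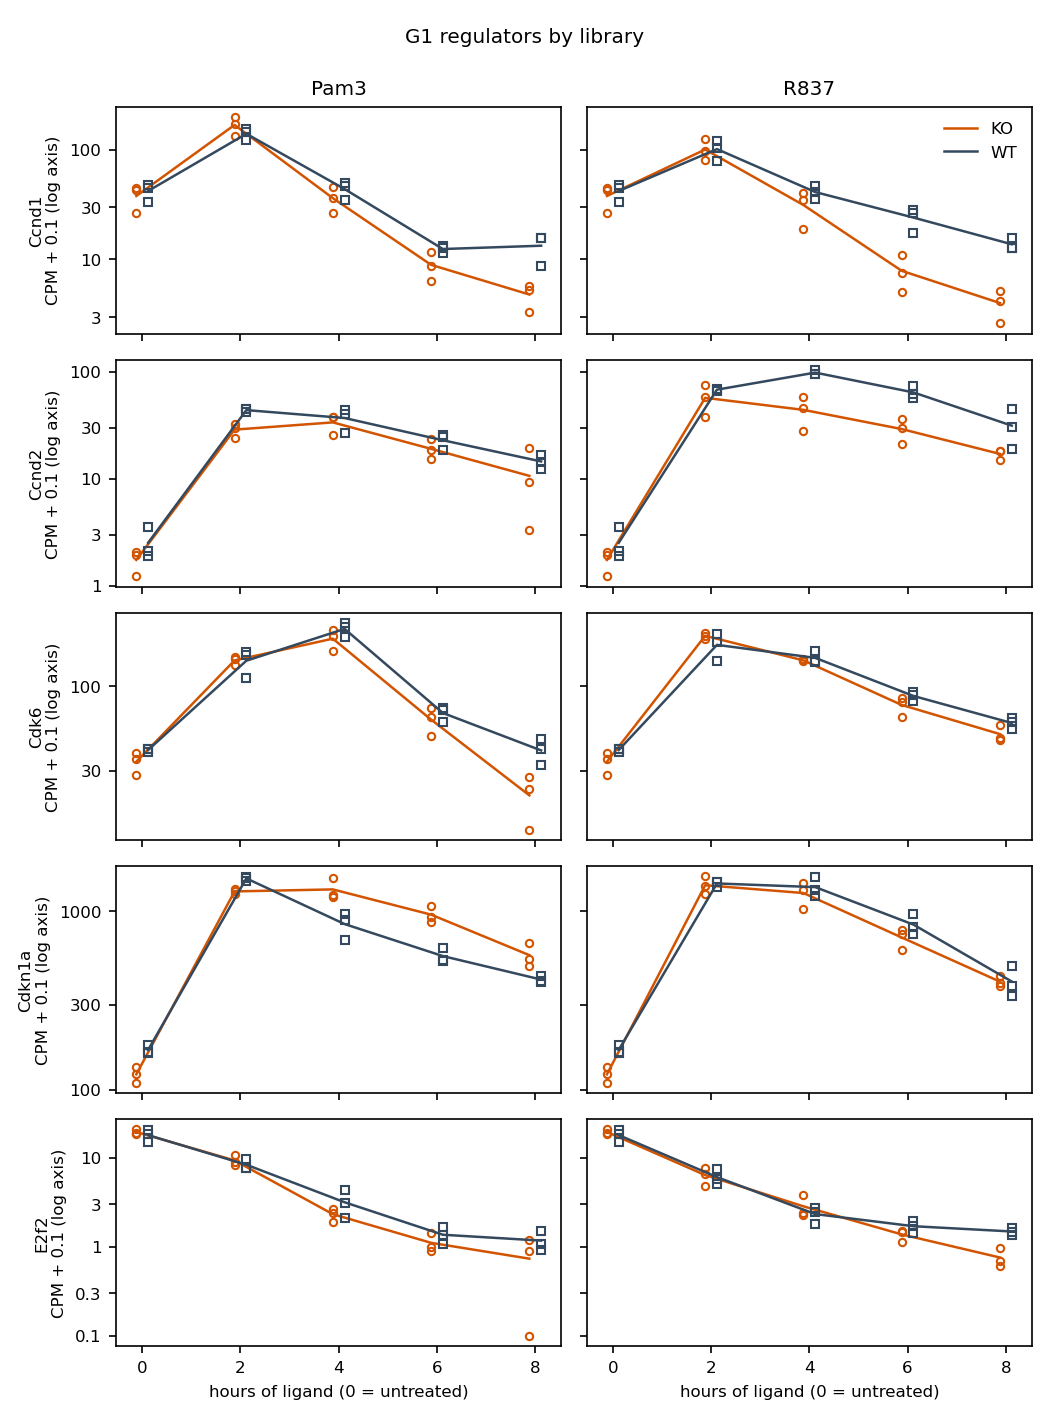
CPM plus 0.1 (log axis) of Ccnd1, Ccnd2, Cdk6, Cdkn1a and E2f2 in each library against hours of treatment, untreated at 0 h, with a row per gene, Pam3 in the left and R837 in the right column, KO as circles, WT as squares and lines through the means of 3 libraries. Ccnd2 and Cdkn1a stay above their untreated levels to 8 h, Ccnd1 peaks at 2 h, and E2f2 declines at each time.

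Of the 3 CDK inhibitors, Cdkn1a rose at every time in all 4 combinations while Cdkn2c (p18) fell in all 4 from 4 h on. Cdkn1a had 1333, 1293 and 1247 CPM in KO cells at 2 h of Pam3, against 133, 123 and 109 CPM untreated. In the WT libraries it reached 1535, 1565 and 1482 CPM at 2 h of Pam3, against 163, 159.8 and 178 CPM untreated. Those log2 changes were 3.41 ± 0.15 (adjusted p = 3.72e-24) and 3.19 ± 0.14 (adjusted p = 2.5e-23), and the libraries did not overlap. At 8 h Cdkn1a was still higher by 2.22 ± 0.14 with Pam3 and 1.73 ± 0.14 with R837 in KO cells, and by 1.31 ± 0.14 and 1.27 ± 0.14 in WT cells, on the log2 scale.

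Cdkn2c had 6.69, 6.13 and 6.47 CPM in KO cells at 8 h of R837, against 27.6, 25.5 and 26.4 CPM untreated, and 7.08, 7.51 and 4.11 CPM in WT cells, against 26.9, 24.4 and 20.9 CPM untreated. The treated libraries were all lower, with log2 changes of -2.04 ± 0.26 (adjusted p = 4.69e-09) and -1.95 ± 0.26 (adjusted p = 1.69e-08). Cdkn1b (p27), which holds cells in G0 and G1, moved by less: its log2 changes at 2 h were -0.54 ± 0.09 with Pam3 and -0.66 ± 0.09 with R837 in KO cells, and -0.01 ± 0.09 and -0.23 ± 0.09 in WT cells. The last of these passed narrowly (adjusted p = 0.0498) and not without WT untreated replicate 1 (0.137) or 2 (0.0646) or WT R837 replicate 1 (0.116) or 3 (0.0807).

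The E2F factors E2f1 and E2f2, both activators of replication genes, differed in their response. E2f2 averaged 19.4, 9.23, 2.22, 1.01 and 0.635 CPM in untreated KO cells and at 2, 4, 6 and 8 h of Pam3, and 17.9, 8.25, 3.06, 1.27 and 1.07 CPM in WT cells. KO replicate 3 at 8 h of Pam3 had 0 counts of E2f2, and the other 2 KO libraries had 0.801 and 1.10 CPM. With R837 at 8 h it had 0.589, 0.876 and 0.506 CPM in KO cells and 1.27, 1.36 and 1.52 CPM in WT cells, far below every untreated library. Its log2 changes at 8 h of R837 were -4.87 ± 0.39 in KO cells (adjusted p = 6.47e-15) and -3.69 ± 0.36 in WT cells (adjusted p = 3.15e-12). E2f1 had 21.9, 21.5 and 18.7 CPM in KO cells at 8 h of R837, against 33.5, 33.6 and 34.0 CPM untreated (log2 -0.70 ± 0.12, adjusted p = 2.43e-06). At 8 h of Pam3 E2f1 had 28.4, 37.5 and 34.95 CPM in KO cells and overlapped the untreated libraries.

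Many of the origin licensing and helicase genes rose at 2 h, fewest in WT cells with R837, and nearly all were lower at 8 h. At 2 h 9 of the 10 rose and 0 fell in KO cells with Pam3, 5 rose and 1 fell in KO cells with R837, 5 and 0 in WT cells with Pam3, and 3 and 2 in WT cells with R837. Of all genes 21.3%, 22.8%, 22.1% and 22.2% rose in these comparisons in the same order. Without KO untreated replicate 3, 5 of the 9 in KO cells with Pam3 still passed. Only 1 of the 2 that fell in WT cells with R837 passed without any 1 of the 3 untreated libraries or R837 replicate 1 or 2. At 4 h 3 were lower and 1 higher in KO cells with Pam3, and 2 and 1 in KO cells with R837. In WT cells 5 were lower and 0 higher with Pam3, and 4 and 0 with R837. Single libraries moved these 4 h counts as well. At 8 h all 10 were lower in KO cells with either ligand, 9 in WT cells with Pam3 and 10 in WT cells with R837, and none was higher. Summed over the 14 replication genes (these 10 and the 4 of nucleotide synthesis), KO cells had 431 ± 41.4 CPM untreated, 776 ± 87.0 at 2 h and 196 ± 19.9 at 8 h of Pam3 (SD, n = 3), and WT cells had 366 ± 27.0, 525 ± 59.9 and 183 ± 7.67 CPM. With R837 the sums at 2 and 8 h were 599 ± 106 and 204 ± 5.00 CPM in KO cells and 426 ± 53.7 and 196 ± 17.7 CPM in WT cells. The rise in WT cells at 2 h of R837 depended on the scaling. On raw library totals the 10 licensing and helicase genes averaged 316.9 CPM there against 332.4 CPM untreated. The 4 of nucleotide synthesis averaged 119.1 against 121.6 CPM. In the other combinations the raw means at 2 h stayed above the untreated ones.

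Mcm6, a helicase subunit, had 138, 174 and 160.4 CPM in KO cells at 2 h of Pam3, against 87.98, 98.8 and 79.4 CPM untreated (log2 0.83 ± 0.15, adjusted p = 1.36e-05). WT libraries held 118, 114 and 95.9 CPM at 2 h of Pam3, against 78.3, 83.3 and 77.6 CPM untreated (log2 0.46 ± 0.15, adjusted p = 0.0124; 0.0653 without WT Pam3 replicate 1). By 8 h of Pam3 it was down to 26.8, 25.3 and 24.8 CPM in KO cells and 26.7, 29.4 and 28.1 CPM in WT cells. Every Mcm6 library at 2 h was above, and every one at 8 h below, the untreated libraries of its genotype. Mcm7, the subunit whose promoter is printed above, had 3.41, 3.96 and 2.73 CPM in KO cells at 8 h of R837, against 11.8, 15.3 and 12.03 CPM untreated (log2 -1.95 ± 0.25, adjusted p = 3.81e-09). In WT cells Mcm7 had 2.61, 3.43 and 2.74 CPM, against 8.89, 11.99 and 9.60 CPM untreated (log2 -1.80 ± 0.25, adjusted p = 4.13e-08). Mcm2 rose by 1.48 ± 0.17 at 2 h and fell by 1.32 ± 0.18 at 8 h of Pam3 in KO cells, and the same log2 changes were 0.94 ± 0.17 and -1.25 ± 0.18 in WT cells. With R837 at 2 h in WT cells the Mcm2 change was 0.56 ± 0.17 (adjusted p = 0.00785), and 0.105 was the adjusted p without WT R837 replicate 2.

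Cdt1, which loads the helicase together with Cdc6, set the ligands apart at 2 h. It had 12.4, 15.4 and 9.39 CPM in KO cells at 2 h of R837, 41.4, 60.3 and 46.0 CPM at 2 h of Pam3, and 34.97, 35.9 and 28.2 CPM untreated. In WT cells it had 9.30, 11.7 and 14.0 CPM at 2 h of R837, 38.7, 27.7 and 43.1 CPM at 2 h of Pam3, and 32.6, 37.1 and 43.3 CPM untreated. All R837 libraries lay below all Pam3 and untreated libraries of the genotype.

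Of the 4 genes of nucleotide synthesis 3 rose at 2 h in KO cells with Pam3, 1 in KO cells with R837, 2 in WT cells with Pam3 and 1 in WT cells with R837, and at 8 h 3, 3, 2 and 3 fell. Single libraries took each of these 2 h counts to 0 (KO untreated replicate 1 for KO cells, WT untreated replicate 3 for WT cells, among others). Rrm2, the regulated subunit of ribonucleotide reductase, had 5.55, 6.25 and 5.06 CPM in KO cells at 8 h of R837, against 19.7, 26.1 and 19.9 CPM untreated (log2 -1.96 ± 0.24, adjusted p = 1.46e-09). WT libraries held 5.56, 7.13 and 3.24 CPM, against 16.3, 17.3 and 11.97 CPM untreated (log2 -1.53 ± 0.24, adjusted p = 5.26e-07). Its partner Rrm1 had 43.6, 49.1 and 50.3 CPM in KO cells at 8 h of R837, against 87.0, 89.6 and 82.5 CPM untreated, and the groups of both subunits did not overlap. Tk1 (thymidine kinase) rose in all 4 combinations at 2 h, by 0.64 ± 0.25 to 0.85 ± 0.25 on the log2 scale. Each of these calls was lost without some library: KO untreated replicate 1 with Pam3 in KO cells (adjusted p = 0.0538), and KO untreated replicates 1 and 3 and KO R837 replicates 1 and 2 with R837 (0.07 to 0.199). In WT cells it was lost without untreated replicates 2 and 3 with either ligand, Pam3 replicate 1, or R837 replicates 1 and 2 (0.0529 to 0.127). Tyms (thymidylate synthase) passed in none of the 16 comparisons with untreated cells, and its log2 changes ran from -0.07 ± 0.35 to 0.69 ± 0.33. In KO replicate 3 at 8 h of Pam3 Tyms, picked out after its values were seen, had 0.776 CPM, beside 9.21 and 11.5 CPM in the other 2. The annotation lists pseudogenes of Tyms, Pcna, Ccnd3, Ccnb1 and Ccnb2, whose reads could be shared.

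**Figure D4:**
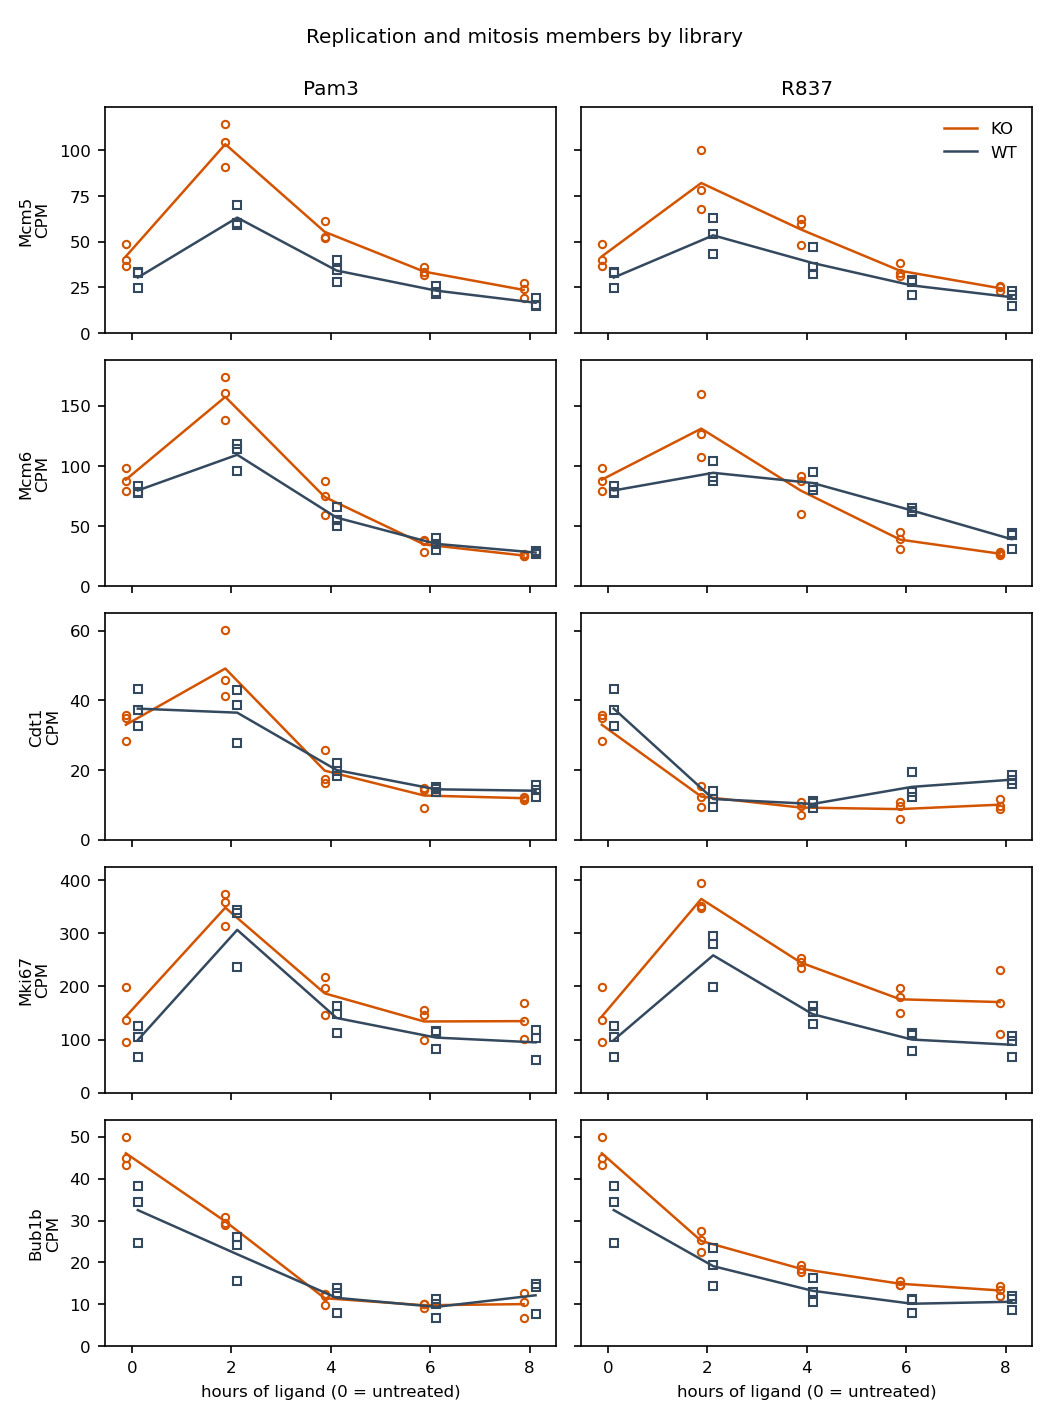
CPM of Mcm5, Mcm6, Cdt1, Mki67 and Bub1b in each library against hours of treatment, untreated at 0 h, with a row per gene, Pam3 in the left and R837 in the right column, KO as circles, WT as squares and lines through the means of 3 libraries. The helicase genes and Mki67 peak at 2 h, Bub1b is below its untreated level from 2 h on, and Cdt1 is low from 2 h of R837.

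The mitotic genes showed little early rise, some were already lower at 2 h, and more had fallen by 8 h. At 2 h 0 of the 7 mitotic cyclins and Cdk1 activators rose in any combination, and 0, 1, 1 and 2 fell in KO Pam3, KO R837, WT Pam3 and WT R837. At 8 h 7, 4, 5 and 4 of them had fallen in the same order. Of these 8 h counts in WT cells, the 5 with Pam3 became 2 without untreated replicate 1 or 2 and 1 without Pam3 replicate 1, and the 4 with R837 became 2 without untreated replicate 1 or 2 or R837 replicate 3. Of the 6 mitotic kinases and checkpoint genes 0 rose at 2 h in any combination, and 1, 3, 1 and 1 fell in that order. Single libraries moved each of these 2 h counts, and the 3 in KO cells with R837 became 1 without R837 replicate 3. The kinesin gene Kif20a was also lower at 2 h of R837 (edgeR adjusted p = 0.00478 in KO and 0.0124 in WT cells, the latter up to 0.0921 under alternatives). At 8 h 6, 3, 3 and 3 of the 6 kinases and checkpoint genes fell, and of the 8 spindle, kinetochore and chromosome genes 7, 5, 5 and 5 fell. In WT cells the 5 of this class with Pam3 became 2 without Pam3 replicate 1, and the 5 with R837 became 3 without untreated replicate 2 or R837 replicate 3. Summed over these 21 genes, KO cells had 911 ± 92.6 CPM untreated, 1096 ± 26.4 at 2 h and 457 ± 13.1 at 8 h of Pam3, and WT cells had 664 ± 163, 852 ± 201 and 432 ± 125 CPM (SD, n = 3). At 8 h of R837 the sum was 616 ± 67.9 CPM in KO cells and 430.0 ± 97.3 CPM in WT cells. Without Mki67 the other 20 genes summed to 767.8 ± 48.1 CPM untreated, 748.1 ± 4.92 at 2 h and 321.6 ± 39.6 at 8 h of Pam3 in KO cells, and to 564.6 ± 134, 545.9 ± 141 and 337.4 ± 95.4 CPM in WT cells, so without Mki67 the mean at 2 h was below the untreated one in both genotypes.

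Cdc25b, a phosphatase that activates Cdk1, had 8.75, 10.1 and 9.58 CPM in KO cells at 8 h of R837, against 44.5, 41.3 and 49.4 CPM untreated (log2 -2.25 ± 0.36, adjusted p = 1e-06). WT libraries held 13.3, 12.1 and 5.71 CPM, against 42.2, 45.2 and 32.3 CPM untreated (log2 -1.95 ± 0.36, adjusted p = 1.2e-05). The cyclin A gene Ccna2, which acts in S phase and early mitosis, fell by less, with log2 changes at 8 h of R837 of -0.91 ± 0.26 in KO cells (adjusted p = 0.00299) and -0.87 ± 0.27 in WT cells (adjusted p = 0.00507). Ccna2 had 28.6, 32.0 and 33.6 CPM in those KO libraries against 54.2, 61.2 and 61.1 CPM untreated, and 23.8, 27.0 and 18.5 CPM in WT libraries against 49.4, 47.5 and 29.7 CPM untreated, so neither genotype had an overlap. An exon of Exosc9 on the other strand covers 12.5% of the exon bases of Ccna2.

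Bub1b, the checkpoint kinase BubR1, was one of the 2 members lower at 2 h in all combinations. It had 25.3, 27.6 and 22.5 CPM in KO cells at 2 h of R837, against 44.9, 43.3 and 50.1 CPM untreated, and 14.4, 13.5 and 12.04 CPM at 8 h. In WT cells it had 19.5, 23.5 and 14.3 CPM at 2 h of R837, against 34.4, 38.4 and 24.8 CPM untreated, and 11.2, 12.02 and 8.61 CPM at 8 h. The log2 changes at 8 h were -1.79 ± 0.23 in KO cells (adjusted p = 3.05e-09) and -1.62 ± 0.23 in WT cells (adjusted p = 4.57e-08), with no overlap of treated and untreated libraries. The calls at 2 h of Pam3 were less firm, since the adjusted p was 0.0522 without KO Pam3 replicate 1 and, in WT cells, 0.0919, 0.161 and 0.229 without untreated replicates 1 and 2 and Pam3 replicate 3. Aurkb (Aurora B), the chromosomal passenger kinase, changed by -1.20 ± 0.22 in KO cells and -1.15 ± 0.22 in WT cells at 8 h of R837, on the log2 scale.

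The mitotic kinesins Kif23 and Kif11, which build the midzone and the bipolar spindle, also fell. Kif11 had 18.4, 21.5 and 20.1 CPM in KO cells at 8 h of R837, against 42.1, 42.2 and 46.5 CPM untreated (log2 -1.12 ± 0.26, adjusted p = 0.00032). WT libraries held 12.6, 16.1 and 9.26 CPM, against 33.2, 33.8 and 19.8 CPM untreated (log2 -1.20 ± 0.27, adjusted p = 0.0002). For Kif23 the log2 changes there were -1.45 ± 0.28 in KO cells (adjusted p = 1.76e-05) and -1.42 ± 0.28 in WT cells (adjusted p = 3.14e-05). Mki67, which encodes the proliferation marker Ki-67 and is described after its values were seen, rose in all 4 combinations at 2 h. At 8 h it passed in no combination, and its lowest log2 change over the 16 comparisons with untreated cells was -0.14. It had 394, 352 and 349 CPM in KO cells at 2 h of R837, against 137, 95.3 and 199 CPM untreated, and 296, 280.2 and 199.9 CPM in WT cells, against 105, 126 and 66.9 CPM untreated. The treated libraries were all higher, and the log2 changes were 1.35 ± 0.26 (adjusted p = 4.87e-05) and 1.38 ± 0.26 (adjusted p = 3.69e-05).

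Set against 4 h of the same ligand, the 8 h libraries showed which members went on falling. In KO cells 24 members were lower and 2 higher at 8 h with Pam3 (39.1% of all genes changed), and 19 and 2 with R837 (35.7%). In WT cells 18 were lower and 2 higher with Pam3 (28.8%), and 18 and 3 with R837 (33.5%). Of the 10 licensing and helicase genes 9, 8, 8 and 6 were lower in KO Pam3, KO R837, WT Pam3 and WT R837, and of the 6 mitotic kinases and checkpoint genes 0 changed in any, with 1 lower without KO Pam3 replicate 2 at 8 h or KO R837 replicate 3 at 4 h. Without KO replicate 3 at 8 h of Pam3 the count in KO cells with Pam3 was 18 lower and 2 higher, and without KO replicate 2 at 4 h of Pam3 17 members changed.

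KO and WT cells were then compared within each condition. In untreated cells 0 of the 48 genes passed edgeR's test, beside 0.882% of all genes, although 15 had an unadjusted p under 0.05 and DESeq2 called 1. The fit without a filter on low counts called 9 members in untreated cells and 6 to 16 in each of the 8 treated conditions, all more than the counts that follow. The median log2 difference of the 48 genes, KO over WT, was 0.36 in untreated cells, 0.44 at 2 h and -0.01 at 8 h of Pam3, and 0.41 at 2 h and 0.19 at 8 h of R837, while over all tested genes it lay between -0.05 and 0.00. With Pam3, 3 members were higher and 1 lower in KO cells at 2 h (background 1.43%), 2 higher and 0 lower at 4 h (6.43%), 2 higher and 0 lower at 6 h (7.99%), and 4 higher and 4 lower at 8 h (23.9%). With R837 there were 3 higher and 0 lower at 2 h (2.69%), 2 higher and 1 lower at 4 h (10.4%), 2 higher and 4 lower at 6 h (16.5%), and 2 higher and 3 lower at 8 h (15.9%). The share of members called was above the background at 2 h and below it at 4, 6 and 8 h of either ligand (at 6 h of R837, 12.5% of members). In all, 15 members (31.2%) passed in at least 1 condition and 33 in none, beside 39.7% of all genes. Single libraries moved these small counts. With Pam3 the count was 1 without WT replicate 2 or 3 and 0 without KO replicate 2 or 3 at 2 h, 1 without WT replicate 1 at 4 h, and 1 without any one of the 6 libraries at 6 h. With R837 it was 0 without KO replicate 1 or 2 or WT replicate 1 or 3 and 5 without KO replicate 3 at 2 h, 0 without WT replicate 1 or KO replicate 2 and 1 without KO replicate 1 at 4 h, 3 without WT replicate 1 at 6 h, and 3 without KO replicate 1 at 8 h.

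Of the 10 licensing and helicase genes 3 passed at 2 h, Mcm3, Mcm4 and Mcm5, with either ligand. Mcm5 had 90.9, 115 and 105 CPM in KO cells at 2 h of Pam3, against 70.0, 60.4 and 59.1 CPM in WT cells (log2 0.71 ± 0.16, adjusted p = 0.0153), and it passed in 6 of 9 conditions, each of them lost without some single library. At 4 h of Pam3 it had 52.2, 61.2 and 52.8 CPM in KO cells against 28.0, 34.4 and 40.2 CPM in WT cells, with no overlap at either time. At 8 h of Pam3 1 KO library (19.36 CPM) lay below the highest WT library (19.43 CPM). Mcm4 had 57.4, 76.8 and 71.0 CPM in KO cells at 2 h of Pam3, against 49.9, 50.2 and 40.7 CPM in WT cells (log2 0.54, adjusted p = 0.02), again without overlap. Mcm3, outside the rule for named genes and chosen after its values were seen, was higher in KO cells at 2 h of both ligands (log2 0.53 in each) and at 4 h of R837. At 2 h of Pam3 the adjusted p of Mcm5 was 0.0812, 0.0692, 0.125 and 0.0707 without WT replicates 2 and 3 and KO replicates 2 and 3, and that of Mcm4 was 0.136, 0.181 and 0.106 without WT replicate 3 and KO replicates 2 and 3. Mcm5 at 4 h of Pam3 had 0.0563 without WT replicate 1. Its call at 6 h of Pam3 was lost without any 1 of the 6 libraries (0.0533 to 0.144), and at 8 h without KO replicate 1 or 2 or WT replicate 1 or 2 (0.0592 to 0.129). With R837 it was lost at both times without KO replicate 1 or 2 or WT replicate 1 or 3 (0.0525 to 0.252). The 3 calls of Mcm3 were each lost without KO replicate 2 (0.192 to 0.252), WT replicate 3 (0.091 to 0.212), and WT replicate 2 or KO replicate 3 with Pam3 or WT replicate 1 or KO replicate 1 with R837 (0.0656 to 0.203).

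Mcm7 was higher in KO cells at 8 h of Pam3, at 3.68, 4.06 and 9.03 CPM against 2.57, 1.52 and 2.87 CPM in WT cells (log2 1.25, adjusted p = 0.000314). The third of these KO libraries is the one with few detected genes. Cdc45, another helicase component, had 4.61, 6.64 and 4.57 CPM in KO cells at 6 h of R837, against 1.71, 2.90 and 3.37 CPM in WT cells (log2 0.98, adjusted p = 0.00328). Without WT replicate 1 the adjusted p was 0.0549.

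In the other direction, Cdt1 and Mcm6 were lower in KO cells late in the R837 course. Cdt1 had 9.76, 11.7 and 8.69 CPM in KO cells at 8 h of R837, against 18.5, 17.3 and 15.9 CPM in WT cells (log2 -0.78, adjusted p = 0.00702). Mcm6 had 31.4, 45.5 and 39.7 CPM in KO cells at 6 h of R837, against 61.9, 62.3 and 64.9 CPM in WT cells (log2 -0.70, adjusted p = 0.000673). The groups did not overlap for either gene. For Cdt1 the adjusted p at 8 h was 0.0526 without KO replicate 3. Mcm6 was also lower in KO cells at 8 h of R837 (log2 -0.53, adjusted p = 0.0143), with 0.0744, 0.0936 and 0.0675 without WT replicates 2 and 3 and KO replicate 1.

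The largest differences among the 33 calls were those of Ccnd1, the D-type cyclin that ended below its untreated level. It had 2.52, 5.10 and 4.13 CPM in KO cells at 8 h of R837, against 12.6, 15.7 and 12.7 CPM in WT cells (log2 -1.79, adjusted p = 9.14e-05), and it was also lower in KO cells at 6 h of R837 (log2 -1.61) and 8 h of Pam3 (log2 -1.49). Ccnd2, chosen after its values were seen, was lower in KO cells at 4 and 6 h of R837 (log2 -1.16 and -1.14), though not without WT replicate 1 (adjusted p = 0.0535) or KO replicate 2 (0.144) at 4 h, or WT replicate 3 (0.0582) or KO replicate 2 (0.0876) at 6 h. Cdk6 had 23.1, 27.3 and 12.9 CPM in KO cells at 8 h of Pam3, against 32.6, 46.8 and 40.7 CPM in WT cells (log2 -0.92, adjusted p = 9.91e-05). For each of these comparisons of Ccnd1 and Cdk6 every KO library was below every WT library.

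Cdkn1a was higher in KO cells at 4, 6 and 8 h of Pam3. At 6 h it had 929, 872 and 1069 CPM in KO cells, against 625, 533 and 523 CPM in WT cells (log2 0.77, adjusted p = 7.81e-05), with no overlap. At 8 h the log2 difference was 0.45 (adjusted p = 0.0103), and the adjusted p was 0.103 without KO replicate 1 and 0.0506 without WT replicate 3. Cdkn1b was lower in KO cells at 2 h of Pam3 (log2 -0.39, adjusted p = 0.0235; 0.0749 to 0.238 without KO replicate 2 or 3 or WT replicate 1 or 2) and higher at 8 h of Pam3 (0.44, adjusted p = 0.000486) and of R837 (0.43, adjusted p = 0.00078). At 8 h of R837 Cdkn1b had 64.4, 68.1 and 67.7 CPM in KO cells, against 43.6, 48.04 and 56.9 CPM in WT cells, and the groups did not overlap.

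Among mitotic genes 3 passed between genotypes, and all are named after their values were seen. Mki67 had 232, 111 and 169 CPM in KO cells at 8 h of R837, against 97.1, 107 and 66.9 CPM in WT cells (log2 0.92, adjusted p = 0.0122), and the adjusted p was 0.153 without KO replicate 1 and 0.0899 without WT replicate 3. Cdc25b had 5.69, 6.66 and 0.705 CPM in KO cells at 8 h of Pam3, against 7.07, 13.8 and 12.1 CPM in WT cells (log2 -1.34, adjusted p = 0.0083). Kif23 had 5.41, 6.62 and 2.15 CPM in those KO libraries, against 6.12, 11.5 and 10.2 CPM in WT libraries (log2 -0.97, adjusted p = 0.0133), with an overlap. Without KO replicate 3 the adjusted p was 0.0652 for Cdc25b and 0.138 for Kif23, and Kif23 had 0.0734 and 0.0535 without WT replicates 2 and 3.

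**Figure D5:**
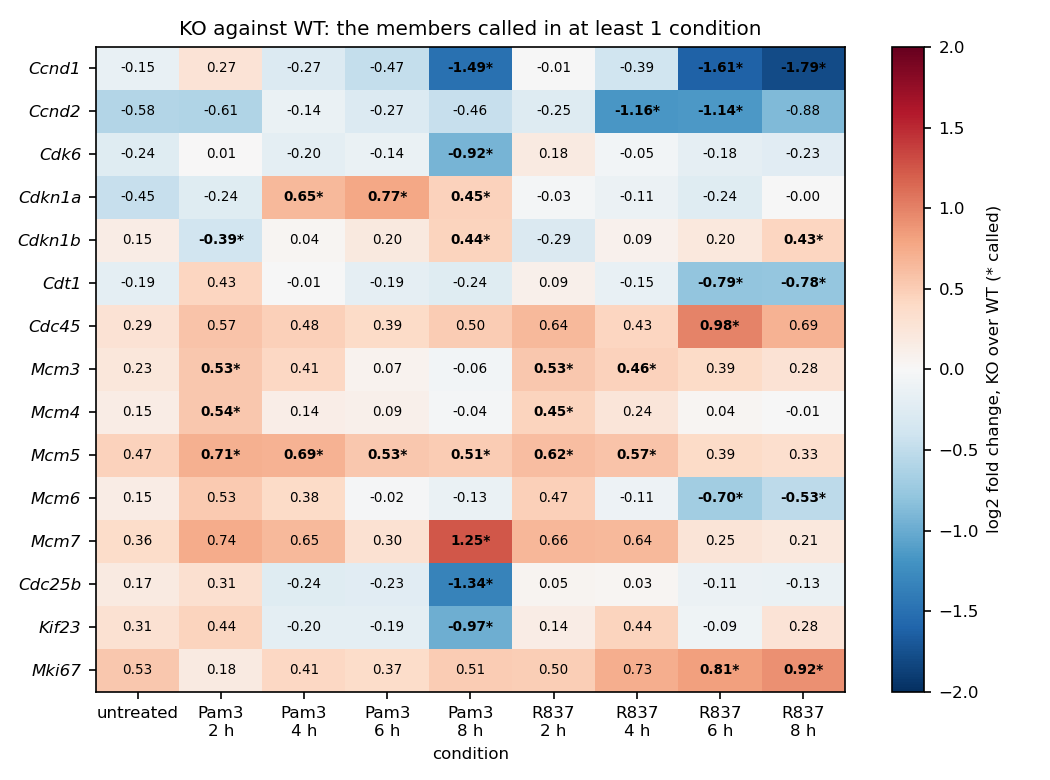
Log2 difference, KO over WT, of the 15 members (rows) that passed in at least 1 of the 9 conditions (columns), with an asterisk where the adjusted p was under 0.05. Ccnd1 is darkest on the lower side at 6 and 8 h of R837 (log2 -1.61 and -1.79), and Mcm5 carries asterisks in 6 of 9 conditions, each lost without some single library.

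A property of the WT libraries moved with these sums. The WT library with almost no Y-linked counts was the lowest WT library in 9 of 9 conditions for the summed replication genes and in 9 of 9 for the summed mitotic genes. The mitotic sum ran from 293 to 620.2 CPM in those 9 libraries and from 459.7 to 973 CPM in the 9 WT libraries with the highest Y-linked counts. KO libraries had 423 to 1119 CPM, and every KO library was above every WT library in 6 of 9 conditions for the mitotic and in 3 of 9 for the replication genes. Of the 33 calls between genotypes all 33 kept their sign when that WT library alone stood for WT, and 4 passed: Mcm5 at 4 h of Pam3 and of R837, and Mki67 and Ccnd1 at 8 h of R837. In 32 of the 33 all 3 KO libraries were on the called side of that WT library, the exception being Kif23 at 8 h of Pam3. The 33 calls were picked with that WT library and the same KO libraries in the test. Kept signs and sides were thus largely set in advance, and they do not test whether the calls hold apart from the Y-linked difference.

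Whether the response itself differed by genotype was tested over all 4 times at once. With Pam3 2 members passed, Cdkn1a (adjusted p = 6.105e-06) and Cdkn1b (adjusted p = 0.0005574), beside 4.64% of all genes. With the Y-linked class of the WT libraries as a term, chosen after seeing the data, 9 passed, and 4 passed without KO replicate 1 at 6 h, WT replicate 1 at 8 h or KO replicate 2 at 8 h of Pam3. With R837 3 passed, Mcm6 (adjusted p = 0.0004568), Ccnd1 (adjusted p = 0.002585) and Cdkn1b (adjusted p = 0.003232), beside 7.47% of all genes. The KO response of Cdkn1a to Pam3 exceeded the WT response by 1.10 ± 0.19 at 4 h (adjusted p = 0.000984), 1.23 at 6 h (adjusted p = 0.000104) and 0.91 at 8 h (adjusted p = 0.00156), on the log2 scale. The untreated level, 122 CPM in KO and 167 CPM in WT cells and not called, enters each of these values. The KO response of Mcm6 to R837 at 6 h was 0.85 ± 0.21 below that of WT, a difference of -0.85 (adjusted p = 0.0082). For Ccnd1 with R837 the differences were -1.46 ± 0.40 at 6 h (adjusted p = 0.0183) and -1.64 ± 0.43 at 8 h (adjusted p = 0.0202). Those of Ccnd1 were each lost without any of 5 libraries, WT untreated replicate 3, KO untreated replicates 1 and 2, KO R837 replicate 1 and a WT R837 library (replicate 1 at 6 h, 2 at 8 h), at adjusted p from 0.0512 to 0.116. Cdkn1b passed at no single time. At 2, 4, 6 and 8 h the single-time test passed for 0, 1, 1 and 1 members with Pam3, beside 0.0401%, 0.387%, 1.1% and 4.47% of all genes. With R837 it passed for 0, 0, 2 and 1, beside 0.0935%, 3.14%, 6.53% and 3.27%.

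R837 and Pam3 were compared at each time within a genotype, on disjoint sets of treated libraries. In KO cells 2 members were higher with R837 and 3 lower at 2 h (10.7% of all genes changed), 4 higher and 2 lower at 4 h (17.4%), 0 higher and 3 lower at 6 h (12.1%), and 5 higher and 3 lower at 8 h (22.8%). In WT cells 0 were higher and 1 lower at 2 h (4.78%), 4 higher and 5 lower at 4 h (21.9%), 4 higher and 3 lower at 6 h (22.7%), and 3 higher and 1 lower at 8 h (11.5%). Cdt1 was lower with R837 in both genotypes at 2 h, by a log2 difference of -1.99 ± 0.21 in KO cells (adjusted p = 3.17e-09) and -1.65 ± 0.21 in WT cells (adjusted p = 3.78e-07), on the library values given above, and still at 4 h (-1.10 and -0.96). The Cdt1 difference at 6 and 8 h did not pass in either genotype.

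Ccnd2 was higher with R837 in WT cells at 4 h, at 104, 95.9 and 95.2 CPM with R837 against 43.7, 26.7 and 40.3 CPM with Pam3 (log2 1.41 ± 0.33, adjusted p = 0.00113), and also at 6 h (1.49). Mcm6 was higher with R837 in WT cells at 4 and 6 h, by 0.59 and 0.84 on the log2 scale. E2f1 was lower with R837 at 6 h in KO cells (-0.55) and WT cells (-0.58), and at 8 h in KO cells (-0.70). At 8 h in WT cells Ccnd2 (1.11), Mcm6 (0.48) and E2f1 (-0.38) passed too, but not without WT R837 replicate 2 or 3 or WT Pam3 replicate 3, and Ccnd2 and Mcm6 also not without WT Pam3 replicate 2 and Mcm6 not without WT Pam3 replicate 1 (adjusted p from 0.0539 to 0.304). Cdkn1a was higher with R837 in WT cells at 4 and 6 h (0.69 and 0.59) and lower with R837 in KO cells at 6 and 8 h (-0.43 and -0.49), but not at 6 h without KO Pam3 replicate 3 or KO R837 replicate 2 or 3, nor at 8 h without KO Pam3 replicate 1 (adjusted p from 0.0538 to 0.208). Cdk6 at 8 h had 46.2, 47.98 and 57.5 CPM with R837 against 23.1, 27.3 and 12.9 CPM with Pam3 in KO cells (log2 1.26 ± 0.17, adjusted p = 6.06e-07). Single libraries moved the counts in KO cells: at 2 h to 2 without Pam3 replicate 2, 3 without Pam3 replicate 3 or R837 replicate 1, 9 without R837 replicate 2 and 1 without R837 replicate 3. At 4 h 3 members passed without Pam3 or R837 replicate 1, and at 6 h 5 passed without Pam3 replicate 1 and 1 without Pam3 or R837 replicate 3. At 8 h in KO cells 5 members passed (3 higher and 2 lower) without Pam3 replicate 3, and 4, 5 and 4 without R837 replicates 1, 2 and 3. In WT cells 5 passed at 4 h without Pam3 replicate 3 or R837 replicate 1, and at 8 h 2 passed without Pam3 replicate 1 or 2 and 0 without Pam3 replicate 3 or R837 replicate 2 or 3.

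A second list of 70 other cell cycle genes, chosen with earlier results of these data known, was counted in the same way. At 8 h 59 of the 70 fell and 1 rose in KO cells with Pam3, 57 and 2 in KO cells with R837, 48 and 1 in WT cells with Pam3, and 50 and 1 in WT cells with R837, beside 31.9%, 31.4%, 25.9% and 29.1% of all genes lower. Lig1, the ligase of lagging strands, had 13.1, 17.3 and 15.2 CPM in KO cells at 8 h of R837, against 38.2, 38.8 and 32.3 CPM untreated, and 12.6, 15.2 and 12.04 CPM in WT cells, against 29.8, 32.3 and 26.6 CPM untreated. The polymerase genes Pola1, Pold1 and Pole2 and the condensin gene Ncapd2 fell at 8 h in all 4 combinations. Pttg1 (securin), which guards sister chromatids, went the other way and had 24.8, 27.7 and 29.3 CPM in KO cells at 8 h of R837, against 12.3, 13.6 and 12.4 CPM untreated, and 30.8, 41.7 and 51.8 CPM in WT cells, against 11.9, 11.6 and 11.8 CPM untreated. Its log2 changes there were 1.09 ± 0.16 (adjusted p = 5.1e-08) and 1.82 ± 0.16 (adjusted p = 8.1e-14).

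Of 25 regulators listed beside the members, 24 were tested. Myc, which drives growth and G1 genes, was higher at 2 h by 3.21 with Pam3 and 2.00 with R837 in KO cells and by 3.07 and 2.34 in WT cells, on the log2 scale. Csf1, the gene of M-CSF itself, rose at 2 h in all 4 combinations (log2 5.25 to 5.83), while its receptor gene Csf1r fell (log2 -0.44 to -0.26). Rb1, which encodes the retinoblastoma protein, was lower at 8 h in all 4 combinations (log2 -1.42 to -0.65), and its relative Rbl2 likewise (-1.46 to -0.84). Mdm2, Gadd45a, Gadd45b, E2f3 and E2f5 rose at 2 and at 8 h in all 4. Between genotypes 2 regulators, picked out after their values were seen, are given by library. Cdkn2d (p19) was lower in KO cells at 4 times of R837, with 21.3, 23.6 and 19.2 CPM in KO cells at 8 h against 30.7, 35.04 and 33.8 CPM in WT cells (log2 -0.63 ± 0.17, adjusted p = 0.0059). Cdkn2b (p15) was higher in KO cells at 8 h of Pam3, at 4.20, 5.36 and 8.85 CPM against 2.49, 1.69 and 2.72 CPM in WT cells (log2 1.41 ± 0.33, adjusted p = 0.0012), and lower in KO cells at 2 h of Pam3 (log2 -1.74 ± 0.36). The third of these KO libraries at 8 h is the one with few detected genes, and a test without it is not given. The other KO libraries there also lay above every WT library.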

How the data were processed

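Per the labels' protocols, the 54 libraries of mouse BMDM RNA were prepared with TruSeq RNA v2 and read as single ends of 50 bases. That kit does not mark strand. The submitters' processing notes name GSNAP and GRCm38 without versions. The authors deposited, for each library, whole-number counts of reads over exons for 52636 Ensembl identifiers, not normalized, and RPKM values that were not tested here, whose implied totals were 1.093 to 1.115 times the summed counts. Symbols and positions come from GENCODE M21 (52403 identifiers with a symbol), and each member had 1 identifier.

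Counts were filtered (filterByExpr over 18 groups, minimum count 10, minimum total 15), scaled with TMM factors (0.83 to 1.28) and fitted in one edgeR 4.0.16 quasi-likelihood model (robust, R 4.3.3) with a coefficient per group, so that the groups share one spread. Benjamini-Hochberg adjustment ran over all 14970 genes within each of 37 comparisons at 0.05, and for the tests of a genotype difference in response. SE is the size of the log2 change divided by the square root of F. CPM uses TMM-scaled totals, and RPKM levels here divide them by the deposited exon width. The code was tested on simulated data.

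The members and gene lists were chosen with earlier results of these data known. Library values are given for 2 members per role class with the smallest p in WT at 8 h, 10 members called between genotypes and those with a genotype difference in response, for up to 4 genes of the second list per ligand, for regulators, and for others where the text says so. Alternatives were RLE factors, no filter, a stricter filter (1 CPM), limma voom 3.58.1, DESeq2 1.42.0, the replicate number as a block, only the groups compared, each library left out, only the WT libraries without Y-linked counts (under 1 CPM summed; the replicate number did not mark them, so they were taken per condition), and, added after seeing the data, the Y-linked class as a term. Replicates of a group differed beyond counting noise (chi-square per degree of freedom 6.62 to 89.6), so none was counted as a repeat. Total counts ran from 20.03 to 45.9 M, and SEs come from the fit in which the groups, of 3 libraries each, share one spread.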

Additional observations from a re-analysis of the deposited data

Results flagged for a closer look

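A difference in response between KO and WT cells, tested over the 4 times of a ligand, singled out 5 results. With Pam3 these were Cdkn1a (edgeR adjusted p = 6.105e-06) and Cdkn1b (adjusted p = 0.0005574). The response of Cdkn1a was larger in KO cells by 0.91 to 1.23 on the log2 scale at 4, 6 and 8 h. Part of this lies in untreated cells, where Cdkn1a was lower in KO cells (122 against 167 CPM) without being called. Between treated cells the log2 difference at 8 h was 0.45. With R837 the results were Mcm6 (adjusted p = 0.0004568), Ccnd1 (adjusted p = 0.002585) and Cdkn1b (adjusted p = 0.003232). The KO response was lower by a log2 difference of -0.85 for Mcm6 at 6 h and of -1.46 and -1.64 for Ccnd1 at 6 and 8 h. All of these tests used the same untreated KO and WT libraries. When only the WT library without Y-linked counts stood for WT, 0 members passed edgeR's test with either ligand (1 with Pam3 and 3 with R837 at an unadjusted p under 0.05), in a fit with 1 WT library a condition that is assumed to vary like the other groups.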

How the results depend on the processing

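Of 630 called member values, 409 passed under every alternative run, and no alternative turned a direction. Alternatives gave 8771 values of these, of which 666 did not pass. Of 298 counts under alternatives that kept all replicates, 246 stayed within 1.5 times the value reported, and the ligand counts against untreated cells were among them under every such alternative.

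Without a filter, in the order untreated, Pam3 2, 4, 6 and 8 h, and R837 2, 4, 6 and 8 h, 9, 16, 10, 6, 13, 13, 16, 13 and 15 members passed between KO and WT. There 10, 11 and 14 passed for R837 against Pam3 in KO cells at 4, 6 and 8 h, 4 in WT cells at 2 h, and 11 (Pam3) and 6 (R837) for the genotype difference in response. With DESeq2 1 passed between genotypes untreated, 4 at 4 h of Pam3, 5 and 9 at 2 and 8 h of R837, and 5 for R837 against Pam3 in KO cells at 6 h. With limma voom 8 and 1 passed at 2 and 6 h of Pam3, 5 at 2 h and 5 at 4 h of R837, and 9 for R837 against Pam3 in KO cells at 2 h. With only the groups compared 11, 5 and 1 passed between genotypes at 2, 4 and 8 h of Pam3 and 11, 12 and 9 at 4, 6 and 8 h of R837, 10 and 2 for R837 against Pam3 in KO cells at 4 and 8 h, 2 and 1 in WT cells at 2 and 8 h, and 14 for KO Pam3 at 8 h against 4 h. With only the WT libraries without Y-linked counts 2 passed untreated, 1 at 6 h and 1 at 8 h of Pam3, 3 and 9 at 6 and 8 h of R837, and 0 for the response of either ligand. With the Y-linked class as a term, chosen after seeing the data, 9 passed for the Pam3 response and 2 for R837 against Pam3 in WT cells at 2 h. The no-filter fit tests 27757 genes, and the fits on the groups compared or on 1 WT library a condition hold fewer samples. The cause of the shifts was not tested.

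With the replicate number as a block across genotypes 8 members passed between KO and WT at 2 h of Pam3 and 5, 10 and 12 at 2, 6 and 8 h of R837. With the block within a genotype 4 passed for the Pam3 response, and 9 and 6 for R837 against Pam3 in KO cells at 2 and 6 h. Deviations of same-numbered libraries had a median r of 0.046 within KO (34 of 108 pairs over 0.1), against -0.026 for other numbers (18 of 216). Within WT the medians were 0.063 (36 of 108) and -0.035 (44 of 216), and across genotypes -0.003 and 0.003. Same-numbered libraries of a genotype were thus slightly more alike than others. The model reported here holds no pairing, and the fits with the number as a block are given above. Every condition had 1 WT library of each Y-linked class (high, middle and none), in the same order of numbers in untreated cells and with R837 but not with Pam3, a structure that the fit with a coefficient per group does not model.

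With each library left out in turn, the counts between KO and WT ran from 0 to 6, 1 to 2, 1 to 1 and 6 to 9 for Pam3 and from 0 to 5, 0 to 4, 3 to 7 and 3 to 7 for R837 at 2, 4, 6 and 8 h. They ran from 17 to 29 for KO Pam3 at 8 h against 4 h. For R837 against Pam3 at 2, 4, 6 and 8 h they ran from 1 to 9, 3 to 6, 1 to 5 and 4 to 12 in KO cells, and from 5 to 8 at 4 h and 0 to 4 at 8 h in WT cells. The Pam3 response by genotype ran from 2 to 4. Raw totals in place of TMM-scaled ones moved the summed member level by more than its SD in 11 of 18 groups. They also put the sums of the replication classes in WT cells at 2 h of R837 below the untreated ones. Members near 1 CPM, such as E2f2 at 8 h, rest on few reads. With 3 libraries a group, differences between genotypes well above the SEs given could still fail to pass. A member that was not called is therefore not shown to be equal in the genotypes.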
